A study of Danio rerio with 6 samples.

Results

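Genes of the sugar transporter families were compared between lysosome rich enterocytes (LRE) and the wider pool of intestinal epithelial cells (IEC) of zebrafish larvae. The members were every Ensembl ID whose gene symbol, ignoring case, begins with slc2a, slc5a, slc37a, slc50a or slc35, which gave 69 of the 35117 IDs in the count files. SLC2 had 19 members, SLC5 had 15, SLC37 had 5, SLC50 had 1 and SLC35 had 29. Both groups came from wild type larvae of the EK strain that carried a cldn15la-GFP reporter, received a fluorescent Alexa Fluor dextran into the gut by gavage at 5 days after fertilization and were dissociated 24 hours later. LRE were sorted as cells with both GFP and dextran fluorescence (n = 3 libraries), and IEC as cells with GFP fluorescence (n = 3 libraries). Whether the IEC gate excluded dextran-positive cells is not stated in the labels. The labels also leave unsaid whether each library had its own batch of larvae, and the p-values therefore measure only the spread among the libraries sequenced, which can be technical.

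Sugars cross membranes on several unrelated carrier families. Most SLC2 proteins (GLUT) let hexoses move down their gradients, while SLC2A13 carries myo-inositol together with protons. SLC5 proteins couple uptake to sodium, and SWEET proteins (SLC50) carry sugars without an ion gradient. In the mammalian small intestine, SLC5A1 takes up glucose and galactose at the brush border, SLC2A5 takes up fructose there, and SLC2A2 passes hexoses across the basolateral membrane. SLC37A4 moves glucose-6-phosphate into the endoplasmic reticulum, where glucose-6-phosphatase releases glucose. SLC35 proteins mostly bring nucleotide sugars into the Golgi and endoplasmic reticulum for glycan synthesis. LRE take up luminal protein by endocytosis and break it down in a large lysosomal vacuole.

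The libraries held 42321698 to 53250871 counts in LRE and 39590129 to 52824999 counts in IEC. The library LRE 1 stood apart, with 19396 genes detected against 22974 to 25610 in the other 5, and with 54 members detected against 62 to 66. Its 10 most abundant genes took 43.0% of the counts, against 13.1% to 30.9% in the other 5 libraries. Mitochondrial genes took 21.7%, 11.4% and 6.19% of the counts in LRE 1, 2 and 3, against 8.73%, 4.71% and 4.18% in IEC 1, 2 and 3. Of the LRE markers, 8 of 9 genes, among them CUBN and dab2, were higher in LRE. Over all genes tested, 2.30% were higher and 0.910% lower. Of 16 marker lists, 6 had a gene past the threshold. The exceptions besides the LRE list were 2 of 8 enteroendocrine markers (ghrl and gip), 1 of 8 markers of lipid absorbing enterocytes (FABP2) and 1 of 6 best4 cell markers (ca2), all lower in LRE, and 2 of 8 pigment cell markers (DCT and XDH) and 1 of 5 epidermal markers (TP63), all higher in LRE. With the replicate number as a block 9 lists had one. The lists added were hepatocyte, with 3 of 9 markers higher (ambp, apom and fga), muscle, with 2 of 6 higher, and leukocyte, with 2 of 7 lower. Among the lists counted before, the block called 8 of 8 enteroendocrine, 3 of 8 lipid absorbing and 2 of 6 best4 cell markers lower. It called 4 of 5 epidermal markers higher, and the counts of the LRE and pigment lists were unchanged. Abundance is given in CPM, reads of a gene per 1e6 reads of the scaled library total.

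Summed marker levels did not overlap between the groups for 11 of the 16 lists. LRE lay below IEC for enteroendocrine cells (261 to 1737 CPM in LRE, 2532 to 13512 CPM in IEC), lipid absorbing enterocytes (684 to 1247 CPM in LRE, 1500 to 2841 CPM in IEC), best4 cells (424 to 739 CPM in LRE, 1532 to 4042 CPM in IEC) and goblet cells (439 to 1119 CPM in LRE, 1414 to 2620 CPM in IEC). LRE also lay below IEC for leukocytes (60.1 to 140 CPM in LRE, 168 to 471 CPM in IEC) and for markers of the whole intestinal epithelium (4491 to 5249 CPM in LRE, 5413 to 7314 CPM in IEC). LRE lay above IEC for the LRE list itself, pigment cells (93.9 to 172 CPM in LRE, 25.5 to 63.8 CPM in IEC), epidermis (11191 to 17632 CPM in LRE, 5113 to 8817 CPM in IEC), muscle (605 to 841 CPM in LRE, 453 to 527 CPM in IEC) and neurons (99.6 to 147 CPM in LRE, 47.9 to 77.3 CPM in IEC). Such sums weigh abundant genes most. In the best4 list ca2 averaged 358 CPM in LRE and 2064 CPM in IEC, while 2 of 6 markers were estimated higher. In the goblet list AGR2 averaged 546 CPM in LRE and 1356 CPM in IEC. There SPDEF and muc5.2 had log2 fold changes of only -0.13 and -0.03. In the pigment list XDH averaged 56.1 CPM in LRE and 12.7 CPM in IEC, with 6 of 8 tested markers estimated higher. XDH made up 56.2 of the 93.9 CPM in LRE 1, so the gap between the pigment sums leans on that gene. In IEC 2, csf1ra made up 35.5 of the 63.8 CPM. In the epidermal list krt4 averaged 10628 CPM in LRE and 5920 CPM in IEC, with all 5 markers estimated higher. Of 4 whole-epithelium markers 1, epcam, was estimated higher. The part of these cell types, of library LRE 1 and of mitochondrial reads in the members' differences was not tested.

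Of the 69 members, 61 had enough reads to be tested. With edgeR's quasi-likelihood test and Benjamini-Hochberg adjustment over all 20979 genes tested (threshold 0.05), 7 members rose in LRE, which is 11.5% of those tested, against 2.30% of all genes tested. These were the hexose carrier genes SLC2A8 and SLC2A12, the sodium cotransporter genes SLC5A9, SLC5A11 and slc5a8l, the glucose-6-phosphate carrier gene SLC37A4, and SLC35F6. No member fell, against 0.910% of all genes. At an unadjusted p under 0.05, 4 members were lower and 13 higher, together 27.9% of the members tested against 17% of all genes. DESeq2 called 12 members higher and 3 lower, limma voom called 8 higher and 1 lower, and edgeR with the replicate number as a block called 8 higher and 1 lower, SLC2A2 and SLC35G2 being the additions to the 7. The block called 789 genes higher and 367 lower, where the test without it called 483 and 191. All 7 members kept their call with the block, at an edgeR adjusted p from 0.00381 (SLC2A8) to 0.0187 (slc5a8l). Of all calls 71.66% were higher, but 42.95% were with scaling by library totals alone, a scaling that moved the median of all genes by -0.40 on the log2 scale and left 2 of the 7 members called. In bulk libraries such as these, fewer cells of a type and less RNA per cell cannot be told apart.

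**Figure D1:**
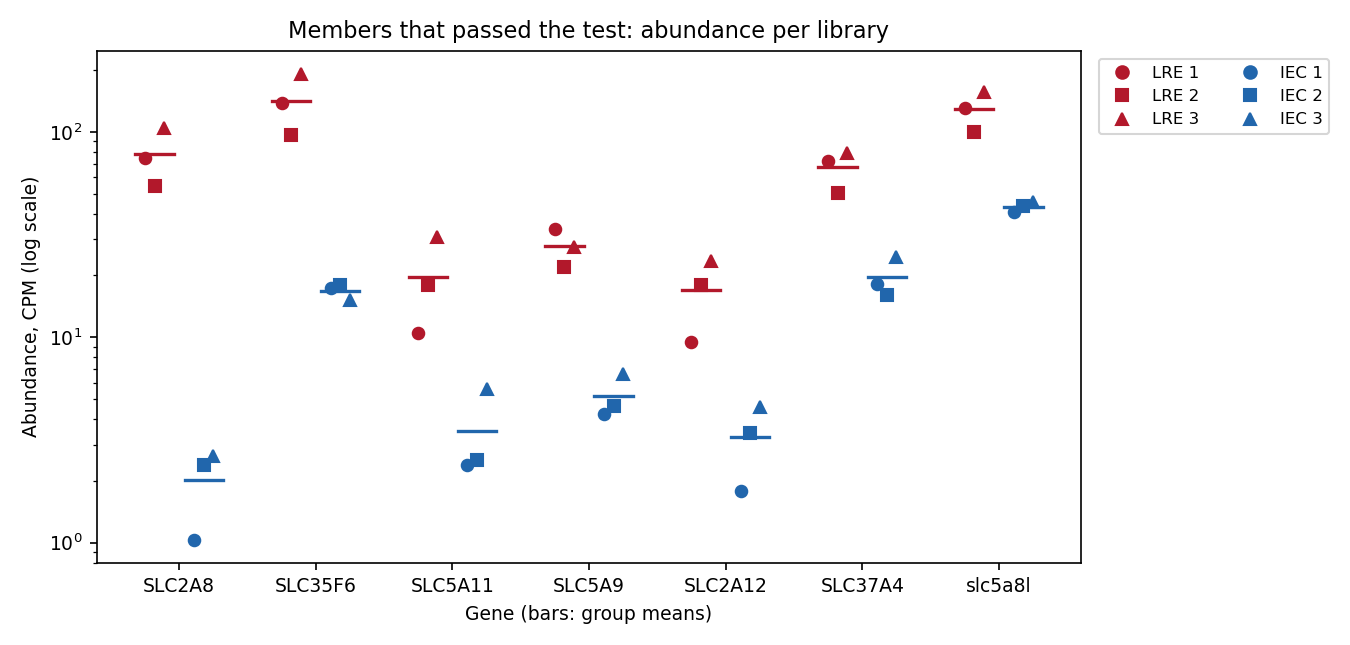
Abundance in CPM (log scale) of the 7 members higher in LRE, with 1 point per library (LRE red, IEC blue, marker shape for the library number) and a bar at each group mean. The 3 LRE points lie above the 3 IEC points for each of the 7 genes, and the gap is widest for SLC2A8, with means of 77.8 and 2.03 CPM.

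The families are described apart. The groups did not overlap, with LRE above, for 12 of 61 members (19.7%, against 13.0% of all genes tested), and with LRE below for 6 of 61 (9.84%, against 13.8%). Among these 6 is SLC35D3, which entered the test through IEC alone. The median log2 fold change of LRE over IEC was 1.15 over the 17 tested SLC2 members, 1.43 over 12 SLC5 members, 1.40 over 4 SLC37 members and -0.26 over 27 SLC35 members, beside -0.06 over all genes. The SLC37 median stayed between 1.22 and 1.53 when each library was left out in turn. The SLC5 median was -0.03 without LRE 2, and the SLC2 median was 0.20 without LRE 2 and 0.32 without LRE 3. The SLC5 median thus depends on LRE 2, and the SLC2 median on LRE 2 and on LRE 3. Genes with high values in these libraries are described below.

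**Figure D2:**
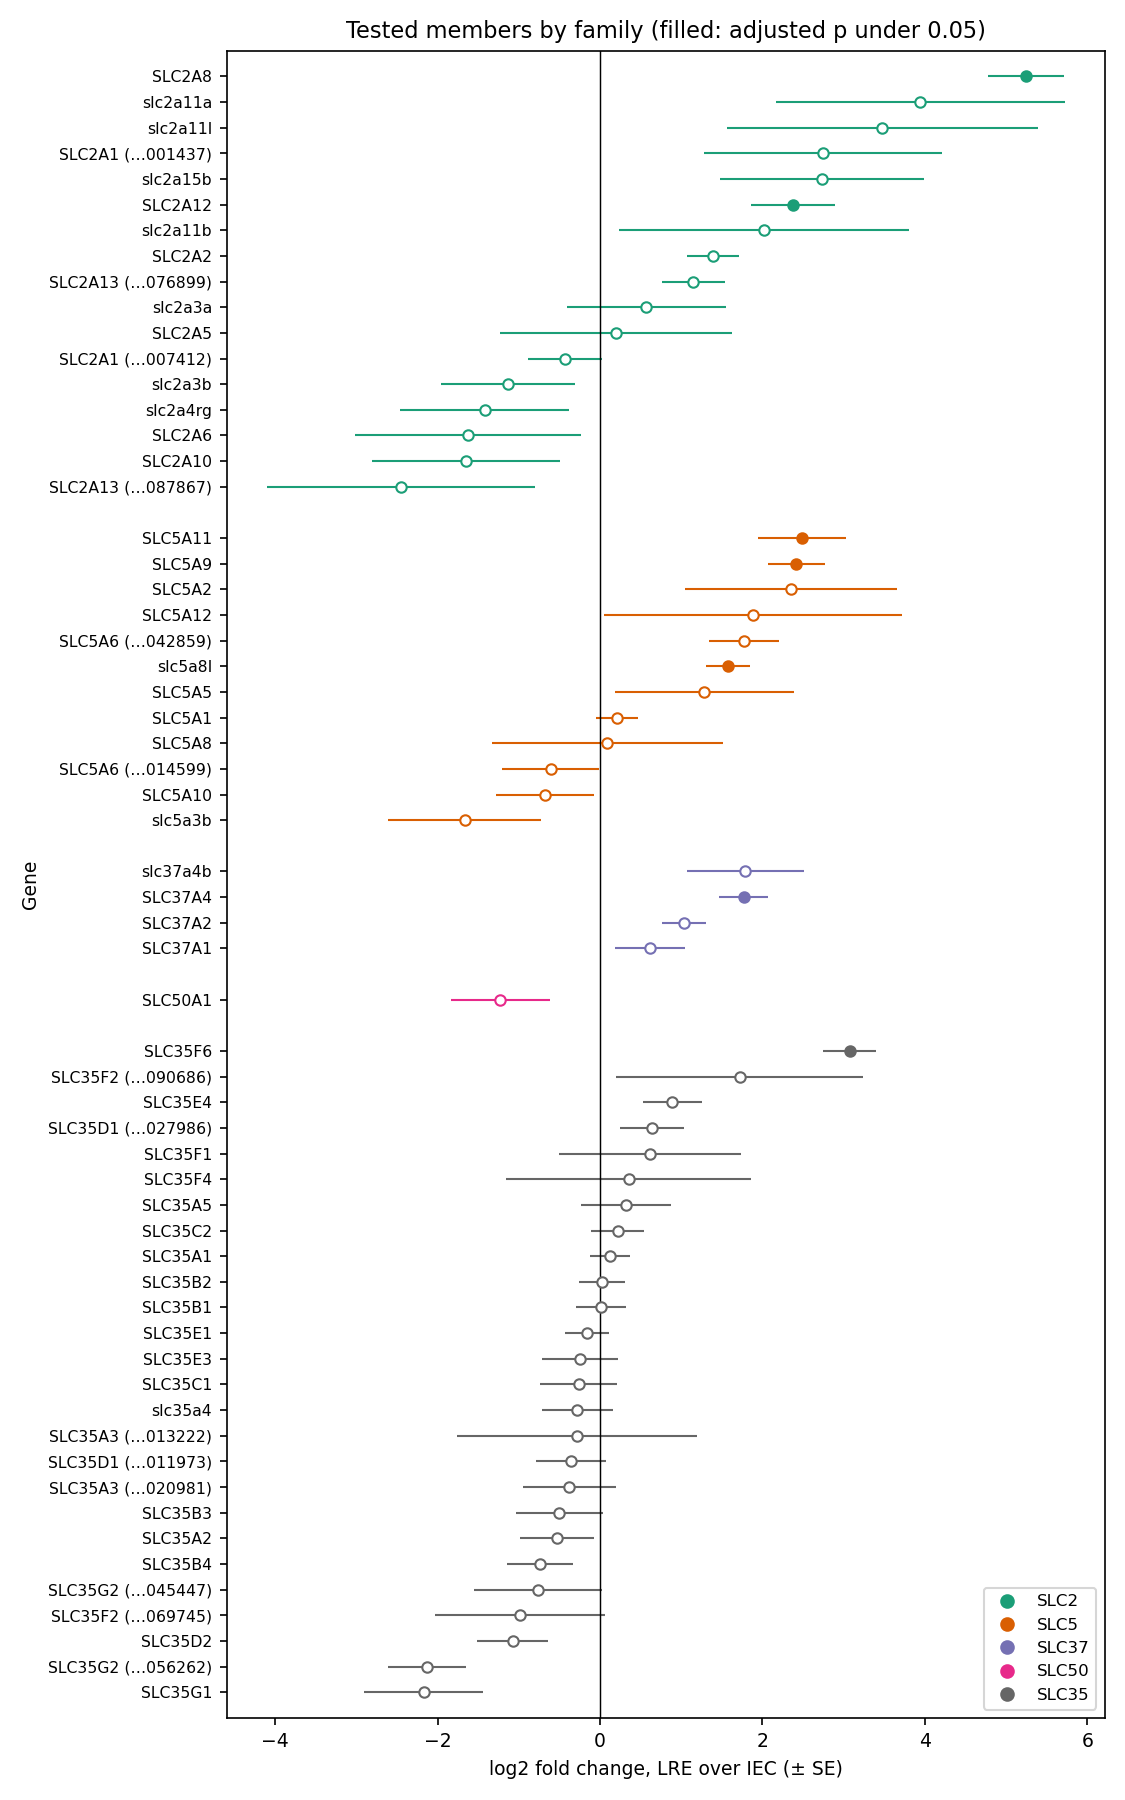
Log2 fold change of LRE over IEC with its standard error for the tested members, grouped by family and ordered by size (SLC35D3, at 0 counts in all LRE libraries, is left out). Filled points passed at an adjusted p under 0.05, and all 7 of them lie to the right of 0, while most SLC35 points lie near it.

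Summed over the 69 members, abundance was 1321, 1339 and 1573 CPM in LRE 1, 2 and 3, against 804, 1039 and 964 CPM in IEC 1, 2 and 3. The sums did not overlap, but as shares of the plain library totals they did, at 0.0914% to 0.161% in LRE and 0.0648% to 0.137% in IEC. The 7 called members were picked from these same libraries as higher in LRE, so a gap between their sums was fixed by that choice. They averaged 480 ± 127 CPM in sum in LRE and 93.6 ± 9.80 CPM in IEC (SD, n = 3 each). The other 62 members together averaged 931 ± 68.4 CPM in LRE and 842 ± 116 CPM in IEC. CPM is not divided by gene length, so levels are compared here between libraries and not between genes.

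Among the SLC2 genes the member with the highest fold change was SLC2A8 (ENSDARG00000104278). Its mammalian product, GLUT8, is a hexose transporter that a dileucine signal keeps on internal membranes of the late endosome and lysosome. SLC2A8 had 74.2, 54.7 and 104 CPM in LRE 1, 2 and 3, against 1.04, 2.40 and 2.65 CPM in IEC 1, 2 and 3. The groups lay far apart, the lowest LRE library being 20.7 times the highest IEC library. Its log2 fold change was 5.25 ± 0.47 (SE, edgeR adjusted p = 0.00201), a 38.4-fold ratio of the means, and it ranked 23 of 20979 genes from the top. It passed under all 15 alternative settings, with an adjusted p of at most 0.0293.

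SLC2A12, a glucose carrier gene, had 9.43, 17.9 and 23.5 CPM in LRE 1, 2 and 3, against 1.79, 3.41 and 4.60 CPM in IEC 1, 2 and 3. The lowest LRE library was 2.05 times the highest IEC library. Its log2 fold change was 2.37 ± 0.52 (edgeR adjusted p = 0.0487), close to the threshold. The call was lost when LRE 2, LRE 3, IEC 1, IEC 2 or IEC 3 was left out (adjusted p up to 0.185), and under scaling by totals alone it was 0.238.

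SLC2A2, the basolateral GLUT2 gene, had 95.2, 69.4 and 111 CPM in LRE 1, 2 and 3, against 28.5, 27.8 and 48.7 CPM in IEC 1, 2 and 3. The groups did not overlap, and the log2 fold change was 1.39 ± 0.32 with an edgeR adjusted p of 0.0600, just outside the threshold. With the replicate number as a block the adjusted p was 0.0229. The fructose carrier gene SLC2A5 was near the detection limit in both groups, at 0 to 1.26 CPM in LRE and 0.402 to 0.662 CPM in IEC, and its log2 fold change of 0.20 ± 1.43 has a 95% interval from -3.05 to 3.45, too wide to show a direction.

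The 2 genes named SLC2A13, for a proton and myo-inositol cotransporter, were estimated in opposite directions, and neither passed. ENSDARG00000076899 had 39.3, 17.1 and 34.9 CPM in LRE, against 18, 11.7 and 11.6 CPM in IEC (log2 fold change 1.15 ± 0.39, edgeR adjusted p = 0.168). ENSDARG00000087867 had 0.0683, 0.692 and 0 CPM in LRE, against 0.188, 2.30 and 1.75 CPM in IEC (-2.45 ± 1.65, adjusted p = 0.515). Their groups overlapped in each case.

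The genes of basal glucose uptake gave no call. SLC2A1 ENSDARG00000007412 had 8.68, 19.5 and 23.8 CPM in LRE, against 13.5, 31.8 and 24.6 CPM in IEC (-0.43 ± 0.46), and slc2a3a and slc2a3b overlapped likewise, at 0.57 ± 0.98 and -1.13 ± 0.83. SLC2A10 was low, at 0.0342 to 0.651 CPM in LRE and 0.943 to 1.37 CPM in IEC, with LRE below (edgeR adjusted p = 0.534). The slc2a4rg gene, named for a mammalian DNA-binding regulator of the GLUT4 gene and not itself a carrier, had 0.218 to 0.955 CPM in LRE and 0.589 to 2.70 CPM in IEC.

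In 3 SLC2 genes, SLC2A6, slc2a11b and SLC2A1 ENSDARG00000001437, the highest library was over 3 times the next. SLC2A6, whose product sits on lysosomes of mouse macrophages, had 3.08, 14.5 and 2.78 CPM in LRE 1, 2 and 3, against 2.1, 59.8 and 0.761 CPM in IEC 1, 2 and 3. Its log2 fold change was -1.62 ± 1.39, and 2.2 without IEC 2. Summed leukocyte markers were 60.1, 140 and 104 CPM in LRE 1, 2 and 3, against 208, 471 and 168 CPM in IEC 1, 2 and 3, so that library 2 was highest in both groups for the markers as for SLC2A6, and their part in its values was not tested. SLC2A1 ENSDARG00000001437 had 0.0342, 1.68 and 12 CPM in LRE, against 0.282, 0.905 and 0.844 CPM in IEC, so LRE 3 alone stood out.

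The fish genes slc2a11a, slc2a11b, slc2a11l and slc2a15b, of a group with roles in zebrafish and medaka pigment cells, had overlapping groups. In these genes LRE 1 was at or under 0.137 CPM. Of these, slc2a11b had 0, 15.7 and 1.19 CPM in LRE 1, 2 and 3, against 0.0627, 1.02 and 3.04 CPM in IEC 1, 2 and 3. Of 9 pigment cell markers, 2, gch2 and aox5, were highest in LRE 2 as slc2a11b was, while 4 were highest in LRE 3 and 3 in other libraries. The log2 fold changes of the 4 genes ran between 2.02 ± 1.78 and 3.94 ± 1.78, and none passed. The part of pigment cell RNA in them was not tested.

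**Figure D3:**
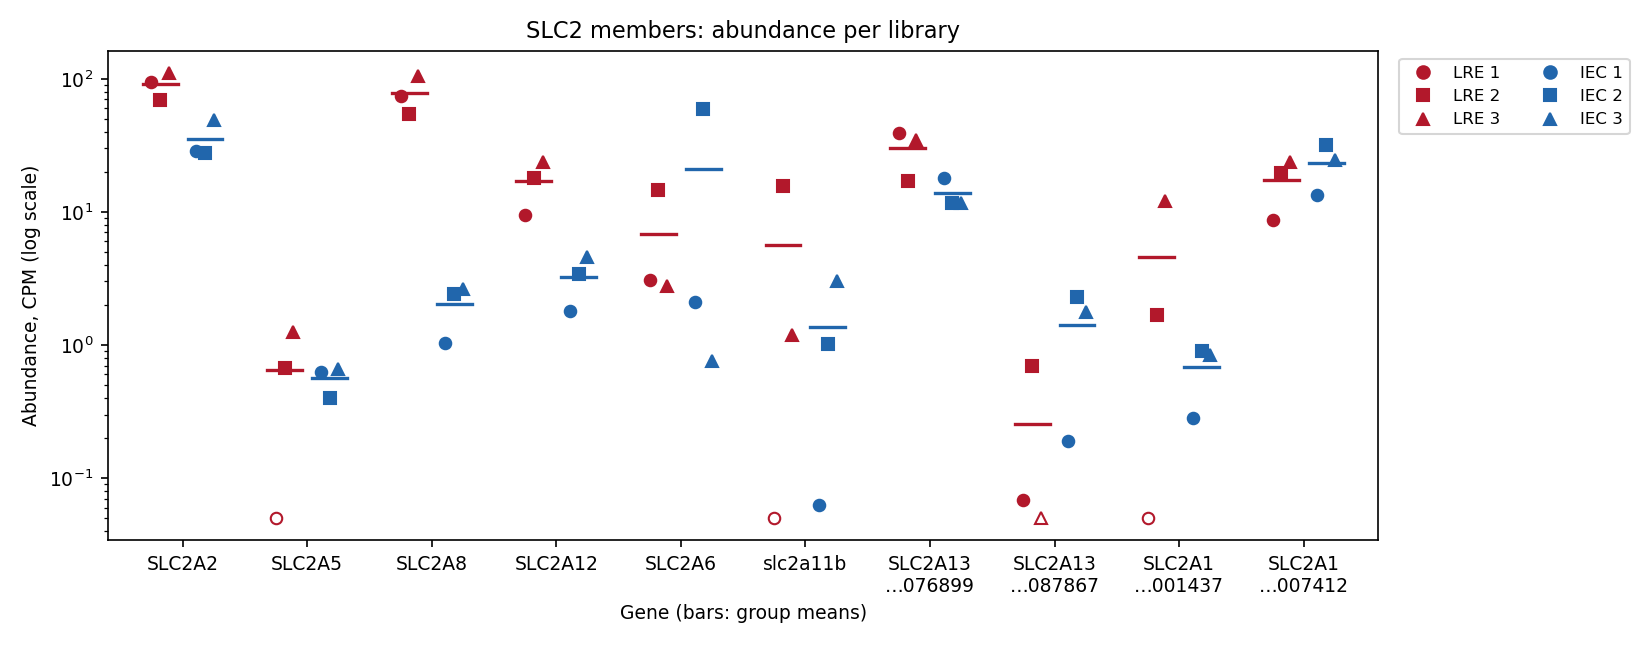
Abundance (CPM, log scale) of 10 SLC2 genes, with 1 point per library, LRE red and IEC blue, bars at the group means, and open symbols at the lower edge for values under 0.05 CPM. SLC2A8, SLC2A2 and SLC2A12 separate the groups, whereas SLC2A6, slc2a11b and SLC2A1 ENSDARG00000001437 are set by 1 high library.

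The SLC5 genes were divided by the cargo known in mammals, namely 4 sugar, 3 myo-inositol, 3 monocarboxylate, 2 vitamin, 2 choline and 1 iodide carrier genes. Among the sugar carriers the brush border glucose cotransporter gene SLC5A1 had 118, 104 and 146 CPM in LRE 1, 2 and 3, against 111, 93.7 and 113 CPM in IEC 1, 2 and 3. The groups overlapped. Its log2 fold change was 0.21 ± 0.26, with a 95% interval from -0.37 to 0.80, and it was -0.17 with scaling by totals alone.

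SLC5A9, whose mammalian product SGLT4 prefers mannose and glucose, had 33.5, 22.0 and 27.4 CPM in LRE 1, 2 and 3, against 4.24, 4.64 and 6.62 CPM in IEC 1, 2 and 3. Its lowest LRE library was 3.33 times the highest IEC library, and its log2 fold change was 2.42 ± 0.35 with a 95% interval from 1.63 to 3.21. The edgeR adjusted p was 0.0110. It was 0.0556 without IEC 2, 0.0531 without both libraries numbered 1 and 0.0963 with scaling by totals alone, and the call held when each of the other 5 libraries was left out.

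The renal glucose cotransporter gene SLC5A2 was set by 1 library, with 1.20, 40.5 and 1.32 CPM in LRE 1, 2 and 3, against 0.816, 4.17 and 3.41 CPM in IEC 1, 2 and 3. The lactate and monocarboxylate carrier gene SLC5A12 showed the same, with 0, 37.8 and 1.39 CPM in LRE, against 0.157, 2.27 and 8.16 CPM in IEC. Both genes are known from the kidney proximal tubule of mammals. Their log2 fold changes, 2.35 ± 1.31 and 1.88 ± 1.83, were -1.15 and -2.32 without LRE 2. Summed pronephric tubule markers were 355, 401 and 384 CPM in LRE 1, 2 and 3, against 308, 459 and 463 CPM in IEC 1, 2 and 3, nearly all from CDH17, which the intestine also expresses. The part of kidney RNA in the high values of LRE 2 was not tested. SLC5A10, the gene of a mannose and fructose cotransporter, had 1.54, 6.03 and 3.21 CPM in LRE, against 4.83, 5.86 and 6.57 CPM in IEC, which overlapped.

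The sodium and myo-inositol cotransporter genes did not move as a group. SLC5A11 had 10.5, 18 and 30.7 CPM in LRE 1, 2 and 3, against 2.38, 2.53 and 5.59 CPM in IEC 1, 2 and 3, with no overlap. Its log2 fold change was 2.49 ± 0.55 and its edgeR adjusted p was 0.0490, and the call was lost without LRE 2, LRE 3, IEC 1, IEC 2 or IEC 3 (up to 0.193), without both libraries numbered 1 (0.0846) and with totals alone (0.216). The other inositol carrier gene, slc5a3b, had 7.11, 37.3 and 7.07 CPM in LRE 1, 2 and 3, against 6.93, 103 and 52.8 CPM in IEC 1, 2 and 3. It overlapped, with a log2 fold change of -1.66 ± 0.94. Its paralog slc5a3a was barely detected and not tested.

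Among the monocarboxylate carriers, slc5a8l, named for its likeness to SLC5A8, had 130, 99.7 and 157 CPM in LRE 1, 2 and 3, against 40.8, 43.4 and 45.3 CPM in IEC 1, 2 and 3. The lowest LRE library was 2.2 times the highest IEC library, and the IEC libraries lay close together. The log2 fold change was 1.58 ± 0.27 (edgeR adjusted p = 0.0201). The call was lost without LRE 3, IEC 1, IEC 2 or IEC 3 (up to 0.106), without both libraries numbered 1 (0.0782) and with totals alone (0.209). SLC5A8 itself was low, at 0 to 0.554 CPM in LRE and 0.220 to 0.430 CPM in IEC.

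The vitamin carrier SLC5A6, which takes up biotin and pantothenate, is represented by 2 genes. ENSDARG00000042859 had 10.4, 10.3 and 8.07 CPM in LRE, against 2.42, 3.18 and 2.83 CPM in IEC (log2 fold change 1.77 ± 0.43, edgeR adjusted p = 0.0694). Its groups were well apart although it missed the threshold. ENSDARG00000014599 had 2.39, 1.92 and 4.34 CPM in LRE, against 5.15, 2.90 and 5.15 CPM in IEC (-0.61 ± 0.60). The iodide carrier gene SLC5A5 had 0.554 to 1.91 CPM in LRE and 0.116 to 0.753 CPM in IEC, with overlap. Of the 2 choline carrier genes named SLC5A7, neither of them tested, ENSDARG00000074860 had 0, 0.772 and 1.45 CPM in LRE and no read in IEC, and DESeq2 counted it among its 12 higher members.

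**Figure D4:**
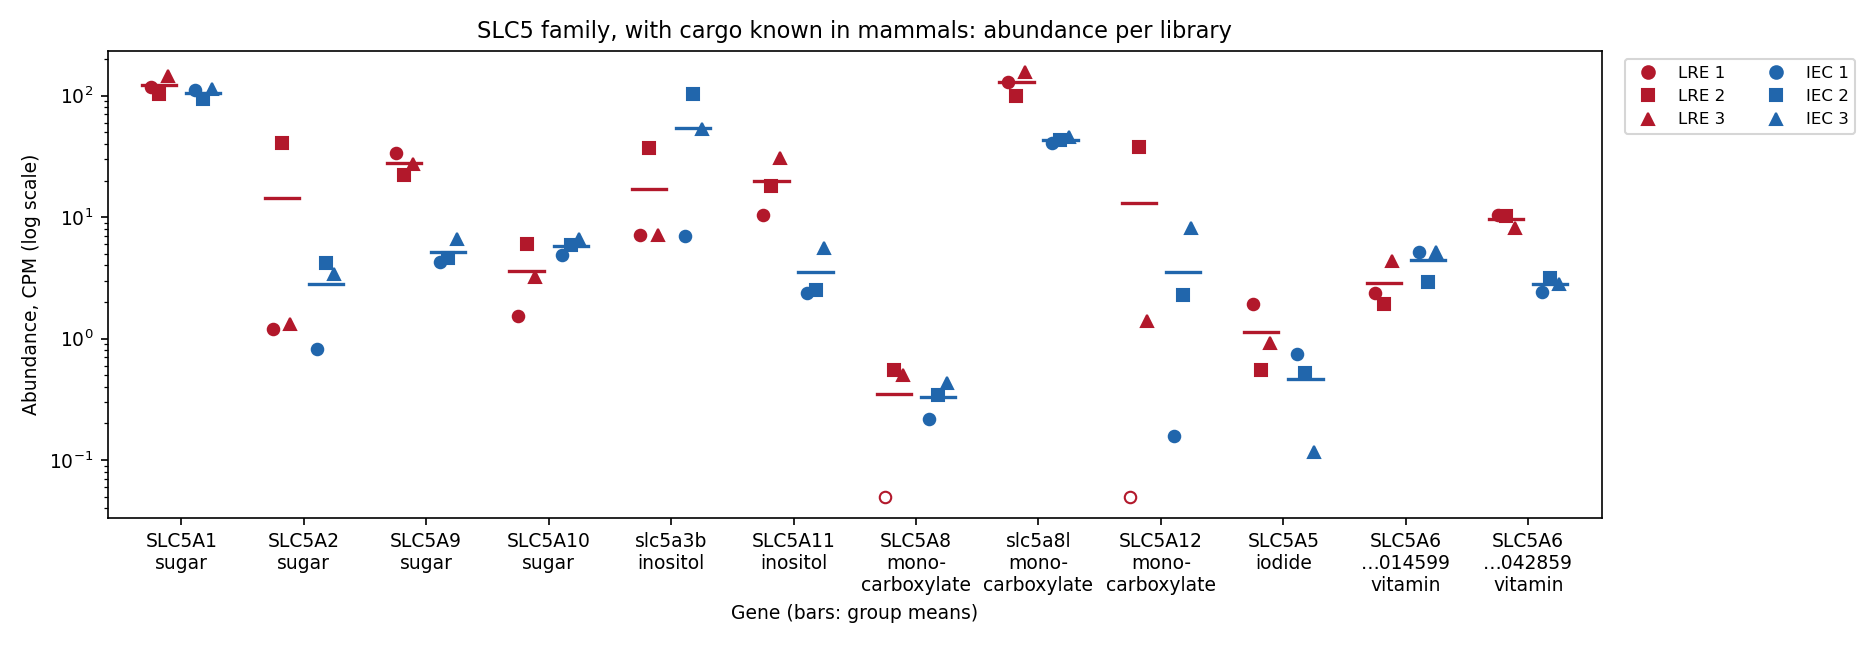
Abundance (CPM, log scale) of the 12 tested SLC5 genes with the cargo known in mammals, with 1 point per library, LRE red and IEC blue, bars at the group means, and open symbols for values under 0.05 CPM. SLC5A9, SLC5A11, slc5a8l and SLC5A6 ENSDARG00000042859 separate the groups, SLC5A1 does not, and SLC5A2 and SLC5A12 are high in LRE 2 alone.

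All 4 tested SLC37 genes had log2 fold changes above 0, against 47.0% of all genes tested. Of the 4, 1 passed as higher, against 2.30% of all genes tested. SLC37A4 (ENSDARG00000038106), the glucose-6-phosphate translocase gene, had 72.4, 50.2 and 78.7 CPM in LRE 1, 2 and 3, against 18.3, 16.1 and 24.6 CPM in IEC 1, 2 and 3. The lowest LRE library was 2.04 times the highest IEC library. The log2 fold change was 1.77 ± 0.30 (edgeR adjusted p = 0.0197). The call was lost without LRE 3, IEC 1, IEC 2 or IEC 3 (up to 0.0898), without both libraries numbered 1 (0.0913) and with totals alone (0.187).

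Its paralog slc37a4b had 4.34, 2.18 and 3.17 CPM in LRE, against 0.627, 1.25 and 0.910 CPM in IEC, with LRE above and an edgeR adjusted p of 0.248. SLC37A2, whose product exchanges glucose-6-phosphate for phosphate in the endoplasmic reticulum, had 166, 141 and 171 CPM in LRE, against 59.3, 84.1 and 90.1 CPM in IEC. Its groups did not overlap, at a log2 fold change of 1.03 ± 0.27 and an edgeR adjusted p of 0.0873. SLC37A1, a like exchanger, had 27.5, 24.5 and 11.2 CPM in LRE, against 8.66, 17.3 and 15.2 CPM in IEC, which overlapped.

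The enzymes that work with SLC37A4 were looked up in a list of the glucose-6-phosphatase system and gluconeogenesis. Of its 9 tested genes 3 rose and 0 fell, against 2.30% and 0.910% of all genes tested. G6PC1 ENSDARG00000013721, the catalytic subunit that splits glucose-6-phosphate, had 935, 738 and 1196 CPM in LRE 1, 2 and 3, against 164, 160 and 227 CPM in IEC 1, 2 and 3 (log2 fold change 2.38 ± 0.34, edgeR adjusted p = 0.0111). Its lowest LRE library was 3.25 times the highest IEC library. The 2 genes named PC, for pyruvate carboxylase, which makes oxaloacetate for gluconeogenesis, rose too. PC ENSDARG00000051939 had 217, 166 and 185 CPM in LRE, against 43.5, 43.0 and 69.5 CPM in IEC (1.87 ± 0.30, adjusted p = 0.0170), and PC ENSDARG00000098766 had 143, 164 and 213 CPM in LRE, against 31.6, 49.8 and 46.9 CPM in IEC (2.02 ± 0.30, adjusted p = 0.0127).

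These 3 calls were also lost in part when single libraries were left out, each of them without LRE 3 and without IEC 2 (adjusted p up to 0.0636 for G6PC1, 0.0799 for PC ENSDARG00000051939 and 0.0674 for PC ENSDARG00000098766). G6PC1 and PC ENSDARG00000098766 lost theirs without IEC 3 too, and PC ENSDARG00000051939 without IEC 1. Without both libraries numbered 1 only PC ENSDARG00000098766 passed, and with totals alone none of the 3 did. With the replicate number as a block all 3 passed. PCK1, the gene of phosphoenolpyruvate carboxykinase, was at 1.59 ± 0.38 with an edgeR adjusted p of 0.0639, and 0.0389 with the replicate number as a block. The liver also expresses SLC2A2, SLC37A4, G6PC1, PC and PCK1. Of the 9 hepatocyte markers all 9 had log2 fold changes above 0, against 47.0% of all genes tested, with a median of 1.1. Of these markers 4 lay above IEC in every LRE library, against 13.0% of all genes tested, although none passed without the block. Their sums overlapped, at 397, 758 and 854 CPM in LRE 1, 2 and 3, against 214, 330 and 535 CPM in IEC 1, 2 and 3, and none of the 9 was at 0 in LRE. The part of liver RNA in these results was not tested.

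The other gene named G6PC1, ENSDARG00000014967, pointed the other way, with 0, 0.178 and 1.17 CPM in LRE, against 6.46, 1.64 and 2.35 CPM in IEC (-2.93 ± 1.40, adjusted p = 0.340).

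**Figure D5:**
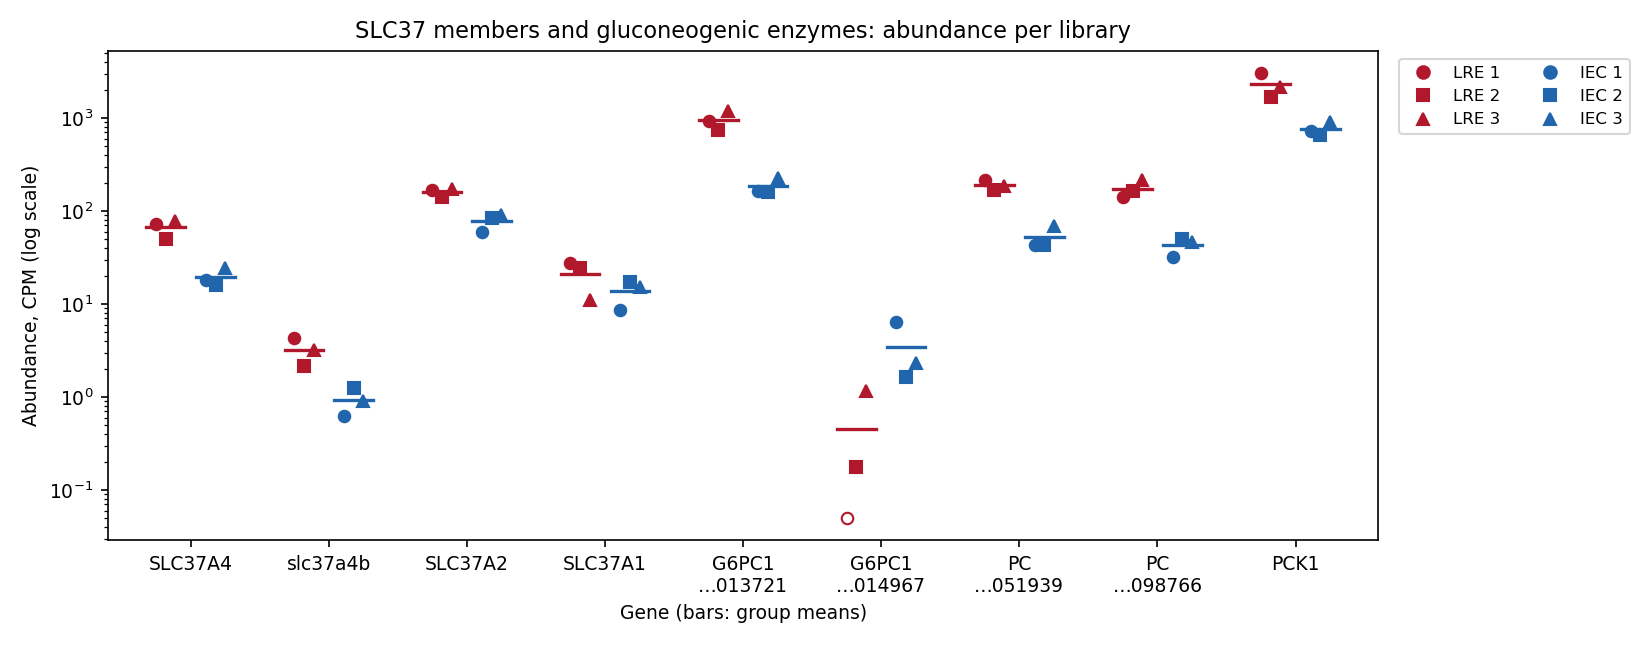
Abundance (CPM, log scale) of 4 SLC37 genes and 5 genes of glucose release and gluconeogenesis, with 1 point per library, LRE red and IEC blue, bars at the group means, and open symbols for values under 0.05 CPM. SLC37A4, slc37a4b, SLC37A2, G6PC1 ENSDARG00000013721, both PC genes and PCK1 lie higher in all 3 LRE libraries. Of these, slc37a4b, SLC37A2 and PCK1 did not pass. SLC37A1 overlaps, and G6PC1 ENSDARG00000014967 lies lower in all 3 LRE libraries.

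The single SLC50 gene, SLC50A1, had 1.16, 3.76 and 4.04 CPM in LRE 1, 2 and 3, against 4.45, 7.72 and 8.82 CPM in IEC 1, 2 and 3. LRE lay below IEC without overlap, at a log2 fold change of -1.23 ± 0.61 and an edgeR adjusted p of 0.364.

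In the SLC35 family 1 of 27 tested members passed, where 3.21% of all genes tested passed in either direction. SLC35F6 (ENSDARG00000016745), whose human product is found in lysosomal and mitochondrial membranes and is not a known nucleotide sugar carrier, had 138, 96.2 and 191 CPM in LRE 1, 2 and 3, against 17.4, 17.9 and 15.2 CPM in IEC 1, 2 and 3. The lowest LRE library was 5.38 times the highest IEC library. The log2 fold change was 3.07 ± 0.33 (edgeR adjusted p = 0.00317). It passed under all 15 alternative settings, with an adjusted p of at most 0.0363, as SLC2A8 did and no other member.

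None of the carriers with a defined nucleotide cargo passed, and for several the estimate lay near 0. SLC35A1, for CMP-sialic acid, had 52.5, 42.4 and 45.4 CPM in LRE, against 49.0, 42.8 and 36.7 CPM in IEC (log2 fold change 0.13 ± 0.25, 95% interval -0.44 to 0.69). SLC35B2, for the sulfate donor PAPS, had 65.4, 62.2 and 38.1 CPM in LRE, against 61.0, 54.1 and 47.9 CPM in IEC (0.02 ± 0.29, interval -0.63 to 0.68). SLC35B1, an ATP and ADP exchanger of the endoplasmic reticulum, was at 0.02 ± 0.31 (interval -0.68 to 0.71). Under scaling by totals alone these 3 values were below 0.

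Among the others of this kind, SLC35D2, for UDP-N-acetylglucosamine, had 4.07, 6.88 and 7.90 CPM in LRE, against 17.4, 13.5 and 8.77 CPM in IEC (-1.07 ± 0.44, edgeR adjusted p = 0.253), with LRE below. The rest overlapped. SLC35B4, for UDP-xylose, was at -0.74 ± 0.41. SLC35A2, for UDP-galactose, was at -0.53 ± 0.46, SLC35C1, for GDP-fucose, at -0.26 ± 0.48, and SLC35A3 ENSDARG00000020981, for UDP-N-acetylglucosamine, at -0.38 ± 0.57. SLC35D1, for UDP-glucuronic acid and UDP-N-acetylgalactosamine, was at 0.64 ± 0.39 for ENSDARG00000027986 and -0.36 ± 0.43 for ENSDARG00000011973. Of the 26 tested SLC35 members other than SLC35F6, 21 had a log2 fold change between -1 and 1.

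The low end of the family held the 4 members with an unadjusted p under 0.05 in that direction, none of which passed. SLC35G2 ENSDARG00000056262, an orphan carrier gene, had 12.6, 10.3 and 3.26 CPM in LRE 1, 2 and 3, against 43.9, 34.4 and 36.2 CPM in IEC 1, 2 and 3. The highest LRE library was below the lowest IEC library, which was 2.74 times as high, at a log2 fold change of -2.13 ± 0.48 and an edgeR adjusted p of 0.0535, or 0.0353 with the replicate number as a block. SLC35G1 had 2.67, 5.58 and 0.564 CPM in LRE, against 9.91, 14.8 and 15 CPM in IEC (-2.17 ± 0.73, adjusted p = 0.170). SLC35D2, given above, was another.

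SLC35D3, which in mice is needed for platelet dense granules, had no read in LRE, against 0.376, 1.90 and 0.761 CPM in IEC. That is at least 13.4-fold lower when each LRE library is set to 3 counts (edgeR adjusted p = 0.0721). It entered the test through IEC alone, so its direction was fixed by the filter and its p-value lends no support. IEC 2 gave 132 of its 190 reads. It is among the 4 members lower at an unadjusted p under 0.05. SLC35E4, an orphan, was the only uncalled SLC35 gene with every LRE library above every IEC library. It had 13.9, 11.7 and 11.7 CPM in LRE, against 5.49, 6.52 and 8.11 CPM in IEC (0.89 ± 0.36, edgeR adjusted p = 0.251). The thiamine carrier SLC35F3 is represented by 2 genes, both too low to be tested. The remaining untested members were slc2a15a, slc2a9l1 and slc37a4bl.

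For 9 pairs of tested genes that share a symbol or differ by a paralog letter, slc2a11 genes not included, the log2 ratio of their CPM was taken within each library, with 0.5 CPM added, and is given as a description. The ratio did not overlap between the groups for SLC5A6, SLC35F2, SLC2A1 and SLC35G2, and a background over other gene pairs was not computed. An exact test that permutes the group labels gave p = 0.1 for each of these 4 pairs (0.225 after Benjamini-Hochberg adjustment over the 9 pairs). That is the smallest p it can give with 3 libraries per group, so no pair could pass. For SLC2A1 the gap was small, with LRE 1 at -4.10 and IEC 1, the highest IEC library, at -4.16. That gap rests on the added 0.5 CPM, since SLC2A1 ENSDARG00000001437 had 1 count in LRE 1. The SLC5A6 ratio, ENSDARG00000042859 over ENSDARG00000014599, was 1.63 ± 0.71 in LRE and -0.53 ± 0.57 in IEC (SD, n = 3 each). The SLC35F2 ratio, ENSDARG00000090686 over ENSDARG00000069745, was -0.32 ± 0.37 in LRE and -2.44 ± 0.68 in IEC. In LRE 1 these genes had 0 and 2 counts, so its ratio of -0.18 is set by the added 0.5 CPM and measures nothing. The ratio of slc37a4b to SLC37A4, at -4.20 ± 0.26 in LRE and -3.82 ± 0.50 in IEC, overlapped. Reads shared between such close copies may have been split or dropped in the counting, which leaves these values uncertain.

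Other genes of sugar handling came in 7 lists with 75 tested genes, of which the 3 gluconeogenic genes above were higher (4.0%, against 2.30% of all genes) and 0 lower. At an unadjusted p under 0.05 there were 20 higher and 4 lower, 32.0% against 17% of all genes. The fit with the replicate block called 6 of the 75 higher and 1 lower, DESeq2 called 12 higher and 1 lower, and limma voom called 5 higher and 1 lower. None of 8 genes of galactose conversion (the Leloir pathway) passed, with 5 of them above IEC in every LRE library (13.0% of all genes were) and a median log2 fold change of 0.89. None of 12 genes of the sodium pump and of SLC5 partner proteins passed either, with 6 above IEC in every LRE library, to be set against the same 13.0%, and a median of 1.30. The 9 genes of glucose and fructose entry into metabolism had a median of 0.69 and gave no call.

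The 23 genes of nucleotide sugar synthesis, which supply the cargo of SLC35 carriers, had a median of -0.06, equal to that of all genes at this precision, and none passed. The list meant for brush border disaccharidases held 4 tested genes, named LCT, LCTL (lactase-like) and TREH. They had a median of -1.44 at levels of at most 11.7 CPM, and none passed. The symbols si, sis and mgam, for sucrase-isomaltase and maltase-glucoamylase, matched no ID, so nothing can be said of those enzymes. The 10 tested genes of glucose-responsive regulation had a median of -0.33, and none passed.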

How the data were processed

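RNA was sequenced from 6 libraries of sorted cells, made with a kit for ultra low inputs per the labels' protocols. The authors deposited raw counts per Ensembl gene ID, 1 file per library. Reads were processed with HISAT2 and HTSeq on GRCz10, per the submitters' processing notes. Their versions, the annotation release and the strand setting of the counting were not given in the sources used here. Amplification from low input can widen the spread between libraries.

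Symbols came from a table pairing 27000 of the 35117 IDs with names, which often lacks zebrafish paralog letters. The counts were tested with edgeR 4.0.16 in R 4.3.3 (TMM factors, filterByExpr defaults with a minimum count of 10, quasi-likelihood test, Benjamini-Hochberg over 20979 genes, threshold 0.05). The filter kept 61 of 69 members, 43 of them above its cut of 0.227 CPM in all 6 libraries and 1, SLC35D3, through IEC alone. CPM divides counts by TMM-scaled totals. Floors for a count of 0 use 3 counts per library and cover counting error only. The procedure was also run on counts simulated with set fold changes, with each library drawn independently. That run cannot speak to the pairing of libraries or to the choice of scaling.

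The members and lists were chosen with earlier results of these data known, so no set test was run. Members were named by rule where they passed, had a textbook role, or were among the most abundant or most changed of a family. Outside that rule, SLC35D3 was named for its unadjusted p under 0.05. Also outside it were SLC35B4, SLC35F2, SLC35F3, slc2a4rg, slc2a11a, slc2a11b, slc2a11l, slc2a15a and slc2a15b. These members and the genes of the other lists and marker lists were named after their values were seen. Alternatives were RLE, upper-quartile or no scaling factors, other filters, DESeq2 1.42.0, limma 3.58.1 voom, a replicate block and left-out libraries. Libraries of equal number deviated together (r = 0.217, 0.238 and 0.188, against -0.194 to 0.0136 for other pairs), and the block was fitted for that reason. Deviations were taken from the group means, so values above 0 for equal numbers push other pairs below 0. The contrast is therefore partly built in. Both libraries numbered 1 had the highest mitochondrial share of their group (21.7% in LRE, 8.73% in IEC). The labels do not say what the numbers mark, and a shared batch was not tested. Some genes of the other lists are counted but not reported by name here.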

Additional observations from a re-analysis of the deposited data

How the results depend on the processing

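SLC2A8 and SLC35F6 passed under all 15 alternatives, and the other 5 called members did not. The count of members higher, 7, was 2 with library totals alone, 12 with DESeq2, 3 without both libraries numbered 1, and 2 to 7 when each library was left out. The count of members lower, 0, was 1 with totals alone, without a filter, with a filter of 1 CPM in 3 libraries, with limma voom and with the replicate block, and 3 with DESeq2, and it was 0 in each leave-one-out fit. Of all genes, 483 higher became 137 with totals alone, 1316 with DESeq2, 789 with the replicate block, 251 without both libraries numbered 1 and 146 to 419 with 1 library left out. The 191 lower became 952 with DESeq2, 290 with limma voom, 367 with the replicate block and 28 to 261 with 1 library left out. Leaving out libraries leaves fewer samples, and the cause of the other shifts was not tested. Beyond SLC2A2 and SLC35G2, the block changed no call among the members. Over all tested members, the genes named G6PC1 and PC, and PCK1, 866 values over the alternatives kept their direction and side of the threshold, 42 lost the call, 18 gained one, 52 without a call changed sign, and 0 called values reversed. Members under about 1 CPM rest on few reads, which limits what can be seen of them.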
